A study of Mus musculus with 6 samples.

Results

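Transcript levels of 10 adenosine and purinergic genes were examined in peritoneal neutrophils of cGAS-/- mice that were cultured for 2 h without or with lipopolysaccharide (LPS), the endotoxin of Gram-negative bacteria. The genes were taken by symbol, and all 10 were found among the 38739 genes of the deposited table. They were the adenosine receptors *Adora1*, *Adora2a*, *Adora2b* and *Adora3*, the ATP-gated channels *P2rx4* and *P2rx7*, the nucleotide receptors *P2ry2* and *P2ry13*, and the enzymes *Nt5e* and *Ada*. By limits on the p and on the size of the change, *Adora2a* and *Adora2b* were called higher after LPS and *Nt5e* was called lower, while the other 7 were not called in either direction. Of all genes tested, 1.69% were called higher and 1.31% lower.

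ATP that leaves stressed or activated cells acts on P2X channels, which open to cations, and on P2Y receptors, which signal through G proteins. Enzymes at the cell surface strip its phosphates one after another, and ecto-5'-nucleotidase (CD73, encoded by *Nt5e*) makes adenosine in the last step. Adenosine acts on G protein-coupled receptors, of which those encoded by *Adora2a* and *Adora2b* raise cyclic AMP and those encoded by *Adora1* and *Adora3* lower it. In neutrophils this system is known for chemotaxis and for restraint of the oxidative burst, and adenosine deaminase (*Ada*) ends the signal by turning adenosine into inosine.

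RNA from 6 samples was sequenced, 3 of untreated and 3 of LPS-treated neutrophils. All came from male mice aged 8 weeks on the C57BL/6J background that lack cGAS, the cytosolic sensor of DNA, so both groups carry the deletion and there was no wild-type sample to compare. The cells were lavaged 2 h after 3% thioglycolate was injected into the peritoneum, and no sort of the cells is described. The LPS dose is 500 ng/mL in the labels and 100 ng/mL in the methods of the study. Nothing in the sources states that the 3 samples of a group came from separate mice or cultures, so p values measure only the spread between these samples, which may be technical.

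Values are given as deposited and are called scaled TPM, transcript abundance relative to a fixed total with a further factor per sample. This form was inferred from the digits of the values. The number of reads is not recorded in scaled TPM, so the depth of the samples is unknown. *Cgas*, the deleted gene, was listed between 0.0286 and 0.307 scaled TPM in the 6 samples. Several features of the whole table moved with the group. The sum of all values was 603599 to 713384 in untreated and 404675 to 465904 in LPS samples, and protein-coding genes held 21.6 to 29.0% of it in untreated and 50.6 to 60.0% in LPS samples. Pseudogenes held 64.7 to 70.7% in untreated and 32.3 to 40.5% in LPS samples. These are shares of the deposited values and may differ from shares of RNA. The 12 neutrophil markers in the table summed to 9741 to 28504 scaled TPM in untreated and 16076 to 54649 in LPS samples. These ranges overlapped. The labelled cell type was thus evident in every sample, although *Ly6g* was not analysed here. B cell markers were also detected (143 to 543 scaled TPM in untreated and 67.1 to 238 in LPS samples).

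The change after LPS was computed with limma as a difference in log2(scaled TPM + 1), a scale that understates changes of genes near or below 1 scaled TPM. Calls required a difference above 2 in size with an unadjusted p under 0.01, the limits of the study. The fit covered 23049 genes, and of the 12754 protein-coding genes among them 2.31% were called higher and 0.353% lower. All 10 genes had a value other than 0 somewhere and were tested, and 7 of them had a mean of at least 1 scaled TPM. Of the 10, 2 were called higher and 1 lower, and the same 3 had an adjusted p under 0.05, as did 0.894% of all genes tested with a higher and 0.946% with a lower value. The median difference of the 10 was 0.68, against 0.01 over all genes tested and 0.13 over those with a mean of at least 1 scaled TPM. The 10 genes were chosen with earlier results of these data known, which limits this comparison.

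**Figure D1:**
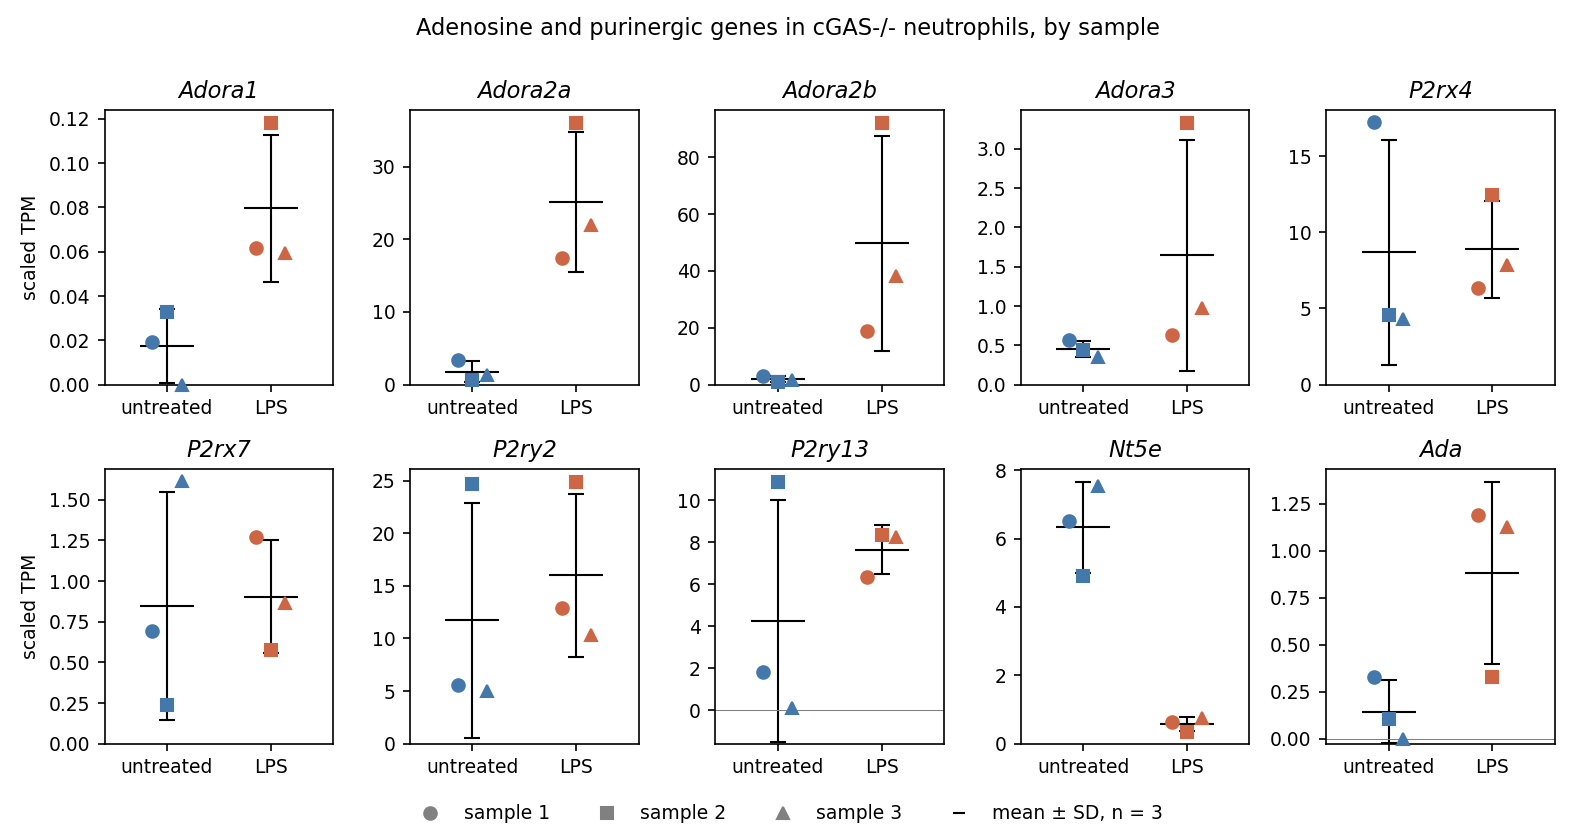
Scaled TPM of the 10 genes in each sample, 1 panel per gene with its own linear axis. Points are samples (untreated in blue, LPS in orange, shape by sample number), and lines with error bars are means ± SD (n = 3). The LPS samples lie above all untreated samples for the 4 adenosine receptor genes and below them for *Nt5e*, and the groups overlap for the other 5 genes.

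*Adora2b* encodes an adenosine receptor of low affinity and had the largest difference of the 10 genes. Untreated samples were listed at 3.16, 0.934 and 1.77 scaled TPM, and LPS samples at 18.9, 92.0 and 38.3. The groups did not overlap, and the lowest LPS sample was above the highest untreated sample, although the LPS samples themselves spread widely around the second one. The means were 1.95 ± 1.13 and 49.7 ± 37.9 scaled TPM (SD, n = 3), a ratio of 25.4. The log2 difference was 3.89 (SE 0.64, 95% confidence interval 2.34 to 5.44), with a Benjamini-Hochberg adjusted p of 0.048 in limma. Of all genes tested, 99.8% had a smaller log2 difference. In these bulk samples, a different number of cells of a type and a different amount of RNA per cell cannot be told apart.

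*Adora2a* encodes the adenosine receptor that is best known for restraining neutrophils. It was listed at 3.43, 0.587 and 1.35 scaled TPM in untreated samples and at 17.4, 36.0 and 22.0 in LPS samples. All LPS samples again lay above all untreated samples, and as for *Adora2b* the second sample was the lowest of the untreated group and the highest of the LPS group. The means were 1.79 ± 1.47 and 25.1 ± 9.66 scaled TPM (SD, n = 3), a ratio of 14.1. The log2 difference was 3.30 (SE 0.50, 95% confidence interval 2.09 to 4.51), with an adjusted p of 0.040 in limma. Of all genes tested, 99.6% had a smaller difference.

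The remaining adenosine receptors, both of which couple to inhibitory G proteins, were listed at low levels and were not called. *Adora3* stood at 0.564, 0.443 and 0.350 scaled TPM without LPS and at 0.634, 3.33 and 0.969 with it. The groups were separate by a narrow margin, and the second LPS sample was well above the rest. Its log2 difference was 0.73 (SE 0.44, 95% confidence interval -0.35 to 1.81), with an adjusted p of 0.465 in limma, and it was 0.31 without the second LPS sample. *Adora1* reached at most 0.118 scaled TPM in any sample, with means of 0.0174 ± 0.0165 and 0.0796 ± 0.0332 (SD, n = 3). Its log2 difference was 0.09 (adjusted p = 0.317 in limma), and 0.61 with 0.1 added to each value in place of 1. It was -0.12 when the samples were centred on their medians, a step that lowered the difference of every gene by 0.20. The LPS samples were thus above all untreated samples for 4 of the 10 genes, the 4 adenosine receptors, which was also so for 13.1% of all genes tested.

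*Nt5e* encodes the surface enzyme that makes adenosine from AMP. Its values were 6.53, 4.90 and 7.54 scaled TPM in untreated samples and 0.640, 0.331 and 0.752 in LPS samples. Every LPS sample was far below every untreated sample, and the spread within each group was small. The means were 6.32 ± 1.33 and 0.574 ± 0.218 scaled TPM (SD, n = 3), so that the untreated mean was 11.0 times the LPS mean. The log2 difference was -2.21 (SE 0.31, 95% confidence interval -2.97 to -1.45), with an adjusted p of 0.035 in limma. Of all genes tested, 1.58% had a lower difference, and all LPS samples were below all untreated samples for 9.75%. The size of this difference depended on the pseudocount. It was -3.29 with a pseudocount of 0.1 (adjusted p = 0.032 in limma), and with a pseudocount of 5 it was -1.02 and the call was lost.

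*Ada*, which breaks adenosine down, was at low levels in both groups. It was listed at 0.331, 0.104 and 0 scaled TPM in untreated samples and at 1.19, 0.327 and 1.13 in LPS samples. LPS samples 1 and 3 were above all others, while LPS sample 2 lay just under the first untreated one, so that the groups overlapped. The log2 difference was 0.69 (SE 0.28, 95% confidence interval 0.01 to 1.37), with an unadjusted p of 0.048 and an adjusted p of 0.287 in limma. It was 2.09 with a pseudocount of 0.1 and 0.19 with a pseudocount of 5, and *Ada* was called with neither.

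**Figure D2:**
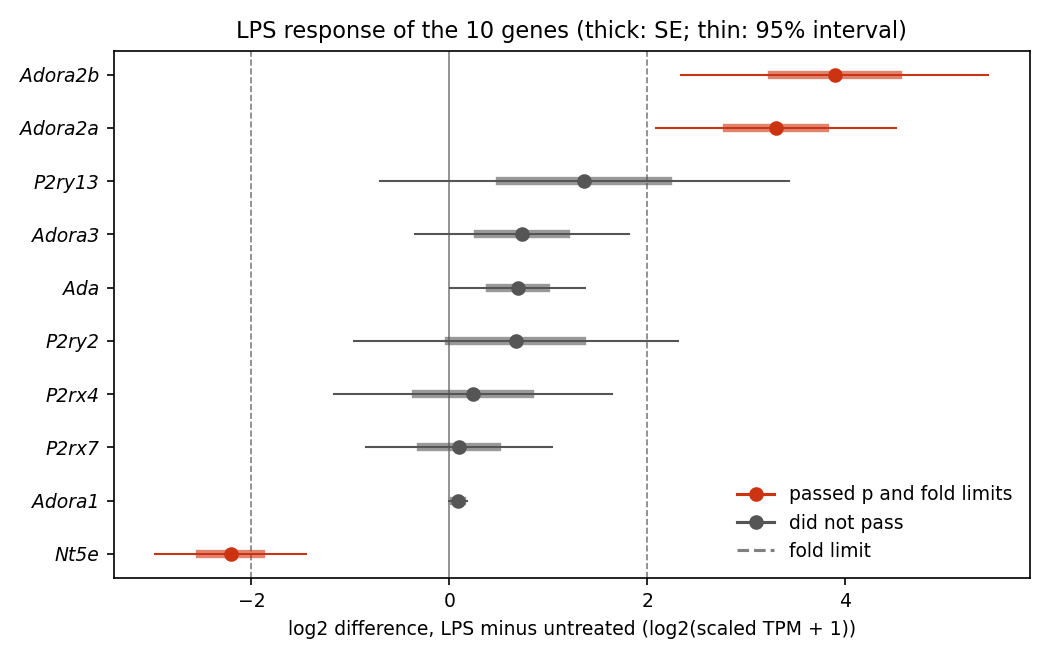
Difference in log2(scaled TPM + 1), LPS minus untreated, for the 10 genes, with SE (thick bars) and 95% confidence intervals (thin lines) from limma (n = 3 per group), dashed lines at the limits of 2 and -2 and called genes in red. *Adora2b* (3.89) and *Adora2a* (3.30) lie above the limit of 2 and *Nt5e* (-2.21) lies below -2, whereas the other 7 lie between the limits.

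The promoters of 2 of the 3 called genes are shown because these genes moved in opposite directions. Promoter sequences were found by symbol for 9 of the 10 genes in a RefSeq table of build GRCm38.p6, which holds 250 bases before and 50 after each gene start, and not for *Adora2a*. Capitals mark the GC box (GGGCGG, read on either strand), the letters bound by Sp1 family factors. The window of *Adora2b* is chr11:62248734-62249033 and that of *Nt5e* is chr9:88327359-88327658, both on the plus strand, written 5' to 3'.
Adora2b: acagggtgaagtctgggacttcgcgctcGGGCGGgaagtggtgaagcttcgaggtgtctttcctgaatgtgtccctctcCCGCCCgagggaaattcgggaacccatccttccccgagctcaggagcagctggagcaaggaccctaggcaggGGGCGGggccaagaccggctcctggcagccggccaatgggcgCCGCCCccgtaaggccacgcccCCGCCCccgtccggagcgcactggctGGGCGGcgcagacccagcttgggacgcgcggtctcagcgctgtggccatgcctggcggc
Nt5e: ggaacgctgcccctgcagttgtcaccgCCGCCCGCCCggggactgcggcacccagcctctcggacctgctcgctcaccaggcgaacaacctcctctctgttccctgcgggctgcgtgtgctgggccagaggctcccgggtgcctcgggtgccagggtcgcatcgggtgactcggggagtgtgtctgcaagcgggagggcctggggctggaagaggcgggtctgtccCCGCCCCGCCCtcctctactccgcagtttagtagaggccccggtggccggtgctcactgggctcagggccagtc

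The GC box was matched 6 times in the *Adora2b* window and 4 times in that of *Nt5e*, where the matches lie in 2 pairs that share letters. Of 27025 promoters of the same length, 35.9% held at least 1 such match. Neither window matched the NF-kB consensus, the AP-1 letters TGANTCA, the cyclic AMP response element TGACGTCA or the hypoxia element core ACGTG on either strand. These were matched in 8.18, 7.93, 1.88 and 19.7% of promoters. Of the 9 genes with a promoter, 7 matched the GC box in at least 1 window, *Adora1*, *P2rx4*, *P2rx7*, *P2ry2* and *Ada* besides *Adora2b* and *Nt5e*. *Ada* matched the NF-kB consensus, *Adora1*, *Adora3* and *P2rx7* matched AP-1, and *Adora1* and *P2ry2* matched the hypoxia element core. Such matches describe the letters and not the binding of a factor.

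None of the 4 nucleotide receptor genes was called. *P2ry2*, a receptor for ATP and UTP that guides neutrophil migration, had values of 5.58, 24.6 and 4.98 scaled TPM in untreated samples and of 12.9, 24.8 and 10.3 in LPS samples. The second sample was the highest in both groups and at nearly the same level in each, and the groups overlapped. The log2 difference was 0.67 (SE 0.67, 95% confidence interval -0.97 to 2.31), with an adjusted p of 0.597 in limma. It was 1.35 without the second untreated sample (adjusted p = 0.182 in limma), 0.30 and 0.36 without untreated samples 3 and 1, and 0.32 without the second LPS sample. *P2ry13*, a receptor for ADP, was listed at 1.81, 10.8 and 0.126 scaled TPM without LPS and at 6.33, 8.35 and 8.27 with it. The LPS samples lay close together and within the wide range of the untreated ones. Its log2 difference was 1.36 (SE 0.85, 95% confidence interval -0.71 to 3.43), with an adjusted p of 0.480 in limma. Without the second untreated sample it was 2.27 and *P2ry13* was called (adjusted p = 0.089 in limma), and without untreated sample 3 it was 0.58.

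*P2rx4* and *P2rx7* encode ATP-gated channels, the latter known for its part in inflammasome activation. *P2rx4* stood at 17.2, 4.54 and 4.31 scaled TPM in untreated samples and at 6.36, 12.5 and 7.83 in LPS samples. The first untreated sample was the highest of all 6, and the other untreated samples were the lowest. The means were 8.69 ± 7.38 and 8.89 ± 3.19 (SD, n = 3), with a log2 difference of 0.24 (95% confidence interval -1.17 to 1.64) and an adjusted p of 0.836 in limma. *P2rx7* was listed at 0.693, 0.239 and 1.61 scaled TPM in untreated and 1.27, 0.578 and 0.862 in LPS samples, with all LPS values inside the untreated range. Its log2 difference was 0.10 (95% confidence interval -0.85 to 1.04), with an adjusted p of 0.908 in limma. Changes within these intervals were not excluded with 3 samples per group, and the sign of both differences depended on the scaling and on single samples.

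The order of the genes by level differed between the groups. Untreated samples had the highest mean for *P2ry2* (11.7 scaled TPM), followed by *P2rx4* (8.69), *Nt5e* (6.32), *P2ry13* (4.26), *Adora2b* (1.95), *Adora2a* (1.79), *P2rx7* (0.848), *Adora3* (0.452), *Ada* (0.145) and *Adora1* (0.0174). The ranges of neighbours in this order overlapped except between *Adora3* and *Ada*. After LPS the order was *Adora2b* (49.7), *Adora2a* (25.1), *P2ry2* (16.0), *P2rx4* (8.89), *P2ry13* (7.65), *Adora3* (1.65), *P2rx7* (0.905), *Ada* (0.881), *Nt5e* (0.574) and *Adora1* (0.0796). Here the ranges of neighbours were apart between *P2ry13* and *Adora3* and between *Nt5e* and *Adora1*. *Nt5e* thus stood near the top without LPS and near the bottom with it. The deposited value of a gene appeared to be an average over its transcripts, which was checked in 1 sample and only among values with full digits. Genes with many transcripts would then be set lower than their sums. The order may depend on this, and so may the log2 differences, because 1 was added to each value. The GENCODE M39 annotation holds 33 transcripts for *P2rx4*, 27 for *Adora1*, 16 for *P2ry2* and 15 for *Adora2a*, against 1 for *Adora2b* and *P2ry13*. The number of transcripts averaged by the authors for these genes is unknown.

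The genes lie on several chromosomes of GRCm39 in the GENCODE M39 annotation. *Adora2a* spans 75152560 to 75170628 on the plus strand of chromosome 10, *Adora2b* 62139804 to 62157279 on the plus strand of chromosome 11, and *Nt5e* 88209089 to 88254146 on the plus strand of chromosome 9. No transcript of these 3 genes shared a stretch of at least 150 bases at 95% identity with another gene. The same was found for *P2rx4* and *P2ry13*, at 122845541 to 122867803 on the plus strand of chromosome 5 and 59114539 to 59118304 on the minus strand of chromosome 3. The other 5 share such a stretch, and their values are uncertain to that degree. *Adora1* shares 2203 bases with *Mybph* on the opposite strand, *Ada* 708 with *Pkig*, *P2ry2* 460 with *Gm74011* and *P2rx7* 317 with *Gm71659*, all on opposite strands, and *Adora3* shares 672 bases with *Gm53046* and 156 with *Tmigd3* on its own strand. On the plus strand lie *Adora3* (chromosome 3, 105778174 to 105816242) and *P2rx7* (chromosome 5, 122781942 to 122830400), next to *P2rx4*. On the minus strand lie *Adora1* (chromosome 1, 134126948 to 134163579), *P2ry2* (chromosome 7, 100640649 to 100663957) and *Ada* (chromosome 2, 163565705 to 163592159). Whether kallisto was run with the strand of the library is not given in the sources used here.

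Further genes of the pathway were taken from lists of other P2 receptors, surface enzymes, intracellular purine enzymes, nucleoside transporters, ATP release channels, and G protein and cyclic AMP signalling. Of 103 genes listed, 69 were in the table, the others were not analysed here, and 65 were above 0 in some sample and tested. Of these, 1 was called higher and 0 lower. At an unadjusted p under 0.05 in limma, 9 were higher and 4 lower, against 10.3% and 6.66% of all genes tested. The median log2 difference was 0.03, near the 0.01 of all genes. A single call among 65 genes is near the 1.69% of all genes called higher.

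The called gene was *Ampd3*, whose enzyme converts AMP to IMP inside the cell. It was listed at 1.25, 1.07 and 0.725 scaled TPM in untreated samples and at 22.1, 24.6 and 16.0 in LPS samples. Each LPS sample was above all untreated ones, with means of 1.01 ± 0.266 and 20.9 ± 4.39 (SD, n = 3). The log2 difference was 3.43 (SE 0.31), with an adjusted p of 0.012 in limma. The other intracellular enzymes of highest level were not called. *Aprt*, which salvages adenine, had means of 3.63 and 8.90 scaled TPM and a log2 difference of 1.33 (adjusted p = 0.306 in limma), *Nt5c*, a cytosolic nucleotidase, had a difference of 1.16 (0.551), and *Ahcy*, which releases adenosine from S-adenosylhomocysteine, one of -0.21 (0.810).

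Of the ATP release genes, *Panx1*, a channel through which ATP leaves the cell, had means of 0.951 and 2.72 scaled TPM and a log2 difference of 0.96 (adjusted p = 0.197 in limma). *Slc17a9*, the vesicular nucleotide transporter, had means of 3.14 and 1.01 and a difference of -1.05 (adjusted p = 0.203 in limma). *Lrrc8a*, a subunit of volume-regulated anion channels, had means of 8.79 ± 2.88 and 2.53 ± 0.277 (SD, n = 3) and a difference of -1.43 (adjusted p = 0.094 in limma). The groups were separate for these 3 of the 5 genes tested and overlapped for *Gja1* and *Calhm6*, and none reached the limit of 2. Over all genes tested, all LPS samples were above the untreated ones for 13.1% and below them for 9.75%. Among transporters, *Slc29a3*, an equilibrative nucleoside transporter, had means of 0.606 and 2.82 and a difference of 1.23 (adjusted p = 0.157 in limma), while *Slc28a2* (-0.27, adjusted p = 0.787) and *Slc28a3* (0.01, adjusted p = 0.945) differed by less than the spread between samples.

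Of 18 further genes listed as surface enzymes, 11 were tested and 0 were called. The other 7, *Entpd1* among them, were not analysed here. *Bst1* had means of 41.0 and 55.9 scaled TPM and *Cd38*, which like *Bst1* consumes NAD, had 12.7 and 7.32, and the groups overlapped for both (log2 differences 0.17 and 0.00, adjusted p 0.906 and 1.00 in limma). *Entpd3*, which cleaves ATP and ADP, had a difference of -0.53 (adjusted p = 0.551 in limma). Of the other P2 receptors, 0 of 7 were called. *P2ry6* (-0.01), *P2rx1* (0.31) and *P2ry14* (-0.12) had adjusted p of 0.994, 0.113 and 0.766 in limma, and among the 7 the groups were separate for *P2rx1* and *P2rx5*, higher after LPS at no more than 0.326 and 0.240 scaled TPM. Over all genes tested, all LPS samples were above the untreated ones for 13.1%.

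Adenosine receptors signal through stimulatory or inhibitory G proteins. Of 28 genes of G protein and cyclic AMP signalling tested, 0 were called. Those encoding the inhibitory subunits *Gnai2* and *Gnai3* were abundant and had differences of opposite sign. *Gnai2* was listed at 147.5, 275 and 172 scaled TPM in untreated samples and at 34.1, 91.9 and 39.1 in LPS samples, and *Gnai3* at 59.5, 90.9 and 115 and at 172, 299 and 175. All LPS samples were below the untreated ones for *Gnai2* and above them for *Gnai3*. Their log2 differences were -1.92 (SE 0.48, adjusted p = 0.110 in limma) and 1.27 (SE 0.39, adjusted p = 0.167 in limma), and *Gnai2* passed both limits when samples were set to the same sum over protein-coding genes (-2.41) or centred on their medians (-2.12), while the difference of *Gnai3* was 0.79 with the same protein-coding sum. *Prkar2b*, a regulatory subunit of protein kinase A, had a difference of 0.14 (adjusted p = 0.904 in limma).

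**Figure D3:**
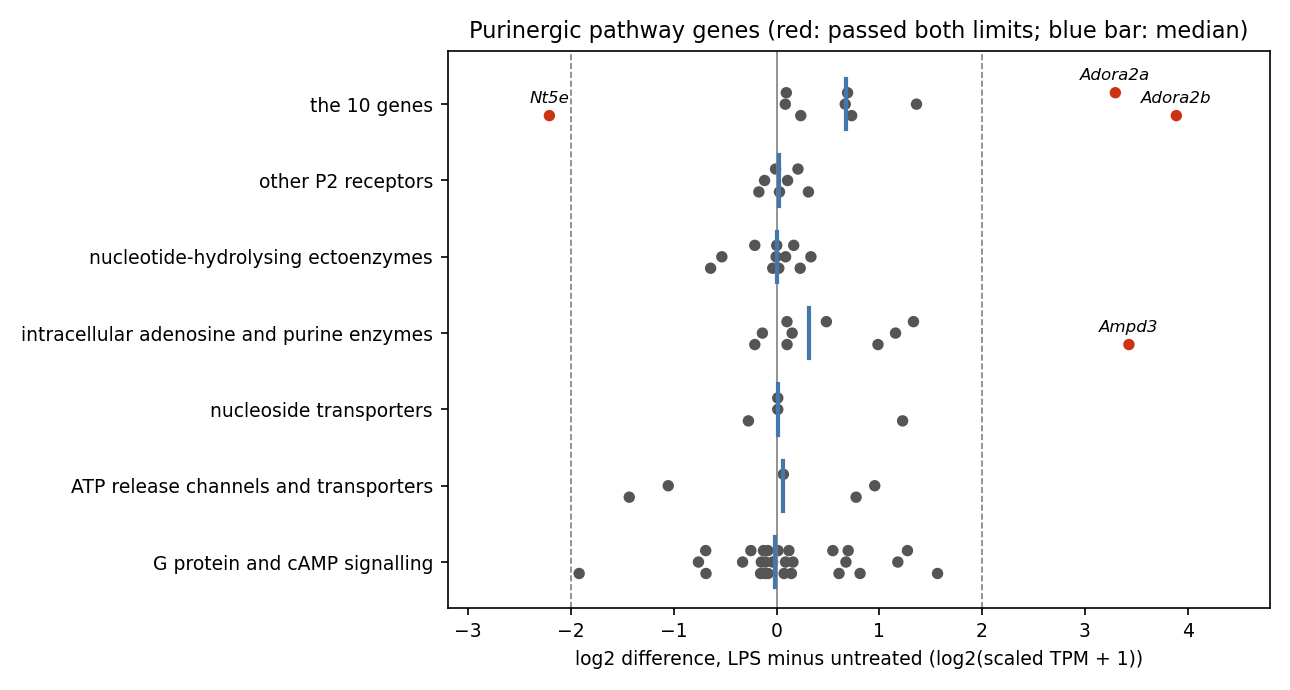
Difference in log2(scaled TPM + 1), LPS minus untreated, of every tested gene of the 6 pathway lists and of the 10 genes of the report, 1 row per list. Each point is a gene, dashed lines mark the limits of 2 and -2, blue bars mark the median of each list, and red points were called and grey ones were not. Of the pathway lists only *Ampd3* (3.43) was called.

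Genes with profiles most like those of the called members were sought among 6004 protein-coding genes with a mean of at least 1 scaled TPM, by the mean absolute difference between centred log2 profiles over the 6 samples. Nearest to *Adora2a* were *Casp4* (0.24), *Tnfaip3* (0.28) and *Gde1* (0.31). *Casp4* encodes the inflammatory caspase that senses intracellular LPS, and *Tnfaip3* encodes A20, an inhibitor of NF-kB signalling. Nearest to *Adora2b* were *Casp4* (0.36), *Smpdl3b* (0.36) and *Adora2a* itself (0.41). Like *Adora2b*, *Smpdl3b* was far higher in the second LPS sample (40.7 scaled TPM) than in the other LPS samples (7.07 and 14.6). Nearest to *Nt5e* were *Ssna1* (0.11), *Abcg4* (0.16) and *Nsmf* (0.17), all with LPS samples below untreated ones.

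Markers of other cells that peritoneal lavage can hold were measured beside these genes, and their part in the results was not tested. Platelet markers, 7 of 8 in the table, summed to 10.7, 4.01 and 11.0 scaled TPM in untreated and 44.6, 14.1 and 36.7 in LPS samples, with no overlap, and *Tubb1* was called higher (log2 difference 2.73, adjusted p = 0.053 in limma). Among LPS samples this sum was lowest in the second, in which *Adora2a* and *Adora2b* were highest. Among untreated samples it was also lowest in the second, in which both genes were lowest (0.587 and 0.934 scaled TPM). Of the 7 platelet markers, 6 had a log2 difference above 0 and 1 below. The groups were separate for 1 with LPS above and for 1 with LPS below. Macrophage and monocyte markers, 11 of 14 in the table, summed to 15.9 to 45.5 in untreated and 42.6 to 67.1 in LPS samples, and *C1qb* was called higher (2.62, adjusted p = 0.064 in limma). Of these 11, 7 had a log2 difference above 0 and 4 below. The groups were separate for 3 with LPS above and for 2 with LPS below. The mast cell sum, 5 of 10 markers, was 28.5 to 86.1 in untreated and 83.3 to 134 in LPS samples. The B cell sum, 5 of 6 markers, was 543, 143 and 406 and then 238, 67.1 and 225, and its ranges overlapped. Of these 5, 3 had a log2 difference above 0 and 2 below, with a median of 0.16. T and NK cell markers (8 of 8) summed to 16.0 to 21.0 and 9.35 to 21.5, dendritic cell markers (6 of 6) to 1.38 to 6.23 and 2.23 to 4.69, eosinophil markers (5 of 7, *Epx* at 0) to 3.10 to 8.52 and 2.02 to 5.31, and mesothelial markers (4 of 6) to 0.118 to 0.811 and 0.239 to 0.771. The neutrophil sum was highest in the second sample of both groups, and *Cxcr2* was the 1 neutrophil marker called (-2.67, adjusted p = 0.094 in limma). Of the 12 neutrophil markers, 5 had a log2 difference above 0 and 7 below, with a median of -0.56. All LPS samples were below the untreated ones for 4 of them and above for 0, against 9.75% and 13.1% of all genes tested.

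**Figure D4:**
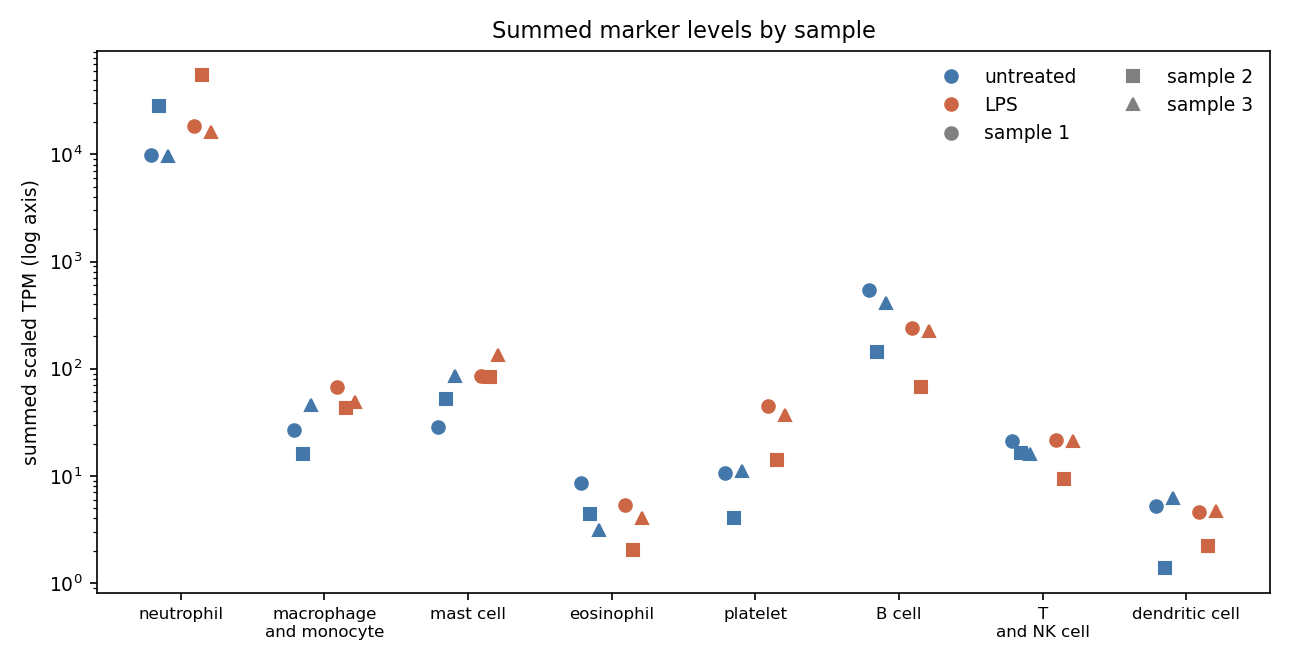
Summed scaled TPM of marker lists in each sample, with a log10 axis, 1 column per list, untreated samples in blue and LPS samples in orange, with the shape giving the sample number. The platelet sums of the LPS samples (14.1 to 44.6) lie above those of the untreated samples (4.01 to 11.0), while the sums of the B cell, T and NK cell, dendritic cell and eosinophil lists overlap.

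The second sample of each group stood apart in its marker sums, so the calls were also computed without both. *Adora2a* (log2 difference 2.68), *Adora2b* (3.04) and *Nt5e* (-2.24) were still called, and *P2ry13* (2.21) was not. When each of the 6 samples was left out in turn, the log2 difference was 2.96 to 3.70 for *Adora2a*, 3.31 to 4.43 for *Adora2b* and -2.36 to -2.09 for *Nt5e*, and each was called in 6 of 6 fits. The adjusted p in limma ranged from 0.044 to 0.169, from 0.074 to 0.181 and from 0.041 to 0.167 in these fits, so an adjusted p under 0.05 did not hold for each of them. With samples set to the same sum over protein-coding genes, the differences were 2.89, 3.47 and -2.49 and all 3 calls were kept, with adjusted p of 0.052, 0.048 and 0.036 in limma.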

How the data were processed

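Total RNA of 6 samples (300 ng per library, reads of 150 nucleotides) was sequenced from peritoneal neutrophils of cGAS-/- mice, and samples were grouped by their titles and treatment labels. The methods and notes of the authors name fastp, STAR, kallisto, edgeR and limma-voom, with GRCm39 in the methods and mm10 also among the notes. The deposited values (named as normalized counts by the authors) were taken as TPM, divided by 1 factor per sample (0.861 to 1.12) and averaged over the transcripts of a gene. This was inferred from their digits. With these factors, 53.2 to 55.4% of the values in the part written with full digits returned to 6 digits. The share was 39.3 to 50.8% of the rounded values that were checked. The averaging was checked in the sample with factor 1, among values written with full digits. There 92.1% of 1334 values not at 6 digits had at most 6 decimals after multiplication by a whole number up to 100. Without multiplication this already held for 20.2% of them. Read counts cannot be recovered from TPM, so no count test was run and depth is unknown. No column of other samples was present.

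From these values log2(value + 1) was computed, and 23049 genes above 0 in at least 1 sample entered a linear model in limma 3.58.1 under R 4.3.3 (two-sided, trended eBayes, no covariates), with Benjamini-Hochberg adjustment over all of them. Genes without any value above 0 (15690) were dropped. Calls used the limits of the study. An exact permutation test of 3 against 3 cannot give p below 0.1 and was not used. Named are all 10 members, every called pathway gene, up to 3 more per pathway list and 2 per marker list by mean value (those of the marker lists not all printed), and the 3 most like genes. *Gnai2* in its alternatives, *Cxcr2*, *Gnai3* in one of them, *P2rx5*, *Gja1*, *Calhm6* and the motifs of other promoters were singled out after their values were seen. The members and lists were chosen with earlier results of these data known. Shared stretches were found with blastn 2.17.0. The limma fit was run on simulated data with normal noise, in which changes were added only to genes of higher level. That run does not show how the fit performs for genes near 0. Alternatives were other pseudocounts, filters, scalings and limits, a replicate block, and samples left out. A low pseudocount with the block, a fit of protein-coding genes alone and one without both samples numbered 2 were added after seeing the data. Python 3.11.15, pandas 2.3.3, numpy 2.4.6 and matplotlib 3.10.9 were used.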

Additional observations from a re-analysis of the deposited data

How the results depend on the processing

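The number of the 10 genes called was 3, and it stayed 3 under the alternatives except with a pseudocount of 5 (2, *Nt5e* lost at -1.02) and without the second untreated sample (4, *P2ry13* gained at 2.27, range over left-out samples 3 to 4). The pathway count was 1 and was 2 with the same protein-coding sum, 2 with centring, 3 with a log2 limit of 1, 2 without both samples numbered 2 and 1 to 2 with single samples left out. *Gnai2* was the added gene except without untreated sample 3 (*Pde4b*), and *Lrrc8a* was added at the limit of 1. The direction turned for *Adora1* with centring (-0.12), for *P2rx4* with the same protein-coding sum (-0.20), without both samples numbered 2 (-0.29) and with single samples left out (-0.07 to 0.82), and for *P2rx7* with the same protein-coding sum (-0.13), centring (-0.11), quantile normalization (-0.013), without both samples numbered 2 (-0.03) and with single samples left out (-0.16 to 0.38). Centring lowered the log2 difference of every gene by the same 0.20. The cause of the other turns was not tested.

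Over all genes, 389 were called higher and 301 lower. The counts were 856 and 493 with a pseudocount of 0.1, 129 and 168 with 5, 834 and 673 with a log2 limit of 1, 206 and 218 at an adjusted p under 0.05, 218 and 514 with the same protein-coding sum, 310 and 414 with centring, 644 and 421 with a pseudocount of 0.1 and the block, and 300 and 45 for protein-coding genes alone. The same sum moved the median difference of genes with a mean of at least 1 by -0.34, and centring moved it by -0.20. The share of calls that were higher was 56.4%, against 29.8% and 42.8% with these scalings.

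With the replicate number as a block, 3 of the 10 genes and 1 pathway gene were called, as without it, and the adjusted p was 0.136 for *Adora2a*, 0.148 for *Adora2b* and 0.115 for *Nt5e* in limma. Correlations of deviations between same-numbered samples were 0.094, 0.199 and 0.083, so the numbers were not taken as pairs, although each sample correlated best with its own number. Depth is unknown, so no lowest detectable level can be given for *Adora1* and *Ada*, which were each listed at 0 in 1 sample.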

Other observations

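Further pathway genes, named after their values were seen, had an unadjusted p under 0.05 in limma without being called. *Pde4b* and *Pde3b*, which encode phosphodiesterases that break down cyclic AMP, had means of 5.38 ± 4.83 and 14.9 ± 0.872 scaled TPM (SD, n = 3) and of 0.341 ± 0.273 and 2.09 ± 0.880, with log2 differences of 1.57 (adjusted p = 0.216 in limma) and 1.18 (adjusted p = 0.176 in limma). *Adcy1*, which encodes an adenylyl cyclase, had means of 0.820 ± 0.191 and 0.125 ± 0.0117 and a log2 difference of -0.69 (adjusted p = 0.132 in limma). These genes are among 18 of the 65 pathway genes tested whose groups did not overlap (12 with LPS above and 6 below), against 13.1% above and 9.75% below over all genes. *P2rx5* and *Ampd1* were listed at no more than 0.240 and 0.101 scaled TPM, with differences of 0.21 and 0.10, and *Ampd1* was listed at 0 in every untreated sample.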
